A study of Mus musculus with 12 samples.

Results

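The genes described here are those measured in both the blood and the hippocampus of the same 6 mice. The blood table held 8003 genes and that of the hippocampus 284, with 8222 different genes in all, and genes were matched by their NCBI gene number. In total, 65 genes had a row in both tables, of which 63 were mRNA genes and 2 were pseudogenes. These 65 genes were 0.812% of the blood table and 22.9% of the hippocampus table. C57BL/6 mice aged 15 months were used, 3 in the control group (Ctrl 1, 2 and 3) and 3 in the *A. muciniphila* group (Akk 1, 2 and 3), and each mouse gave 1 blood library and 1 hippocampus library that carry the same mouse number. Per the study's methods, all mice received antibiotics beforehand, the controls received the vehicle, and the RNA came from mice in which *A. muciniphila*, a mucin-degrading gut bacterium, had not colonized the gut. The labels instead name a membrane protein of the bacterium, given for 6 or 8 weeks depending on the field, so the agent behind the Akk group is given differently by the sources.

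Expression was given as FPKM with 2 decimals, in which the fragments of a gene are divided by the length of its transcript and by the size of the library. A difference in FPKM between tissues is therefore a difference in the share of a library's RNA, and fewer cells of a type cannot be told apart from less RNA per cell. The read numbers are unknown, and the precision is set by the 6 mice. In the blood table, the Akk mean was below the Ctrl mean for 7966 genes and above it for 37, and 7960 and 37 of these differed at least 1.5-fold. In size and in both directions the blood table equals the study's own list of genes that differed between the groups in blood, so having a row there, and with it being a shared gene, was set by this difference. How the hippocampus table was selected is not given in the sources used here. Its Akk mean was below the Ctrl mean for 177 genes and above it for 102, and 95 and 78 of these differed at least 1.5-fold. It did not equal the study's own list for the hippocampus, which was larger and held more upregulated than downregulated genes. The tissue labels could be checked only in part. The blood table held 15 of 18 neutrophil markers and 12 of 12 platelet markers, but 3 of 20 red cell markers, whereas the hippocampus table held 0 of 17 neuron markers and 20 of 30 choroid plexus markers. Ttr, the transthyretin gene of the choroid plexus, stood at 5709 FPKM in the hippocampus of Ctrl 1 and 2033 FPKM in that of Akk 2, against 18.6 to 49.1 FPKM in the other mice. Prl, the pituitary hormone prolactin, stood at 2258 FPKM in the hippocampus of Akk 3 and at most 5.49 FPKM in the other mice. In blood, Ctrl 1 stood apart, with a median of 1.18 FPKM over the 65 genes against 0.12 to 0.31 FPKM in the other 5 libraries. Over the whole blood table, its median was 1.41 FPKM against 0.18 to 0.35 FPKM, so the shift was not limited to the shared genes. The part of these libraries in the results below was not tested, except where a value without them is given.

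Blood RNA comes largely from white cells, platelets and immature red cells, whereas the hippocampus holds neurons and glia together with small vessels and, at its edge, the choroid plexus of the ventricle. Genes listed in both tissues include leukocyte genes, genes of microglia and macrophages, the resident phagocytes of brain and its borders, epithelial genes, interferon-induced GTPases that act against intracellular pathogens, and zinc finger genes that belong to young gene clusters with near-identical copies. The 65 genes were mostly low. The median of their mean FPKM was 0.373 in blood, where the whole table had 0.45, and 0.372 in the hippocampus, where the whole table had 0.356. A mean of at least 1 FPKM was reached by 23 of the 65 genes in blood, by 12 in the hippocampus and by 4 in both tissues, and 34 were below 1 FPKM in both.

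To compare the level between tissues, the blood value of each mouse was set against its own hippocampus value as log2(FPKM + 0.1), a scale on which differences between low values come out smaller than they are. With limma and thresholds of 1.5-fold and an adjusted p of 0.05 over the 65 genes, 23 genes (35.4%) were higher in blood and 19 (29.2%) were higher in the hippocampus, while 23 passed in neither direction. For 11 genes (16.9%) all 6 blood values lay above all 6 hippocampal values, and for 5 genes (7.69%) the reverse held. Within the mice, 17 genes were higher in blood and 12 were higher in the hippocampus in 6 of 6 mice. Leaving out each mouse in turn gave 20 to 26 genes higher in blood and 13 to 21 higher in the hippocampus. With a pseudocount of 1 in place of 0.1, which weighs low genes less, 18 were higher in blood and 8 in the hippocampus, and Cd6, Hcar2, Socs1, Rbm47, A930009A15Rik and Il4i1 were among the genes whose call was lost.

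**Figure D1:**
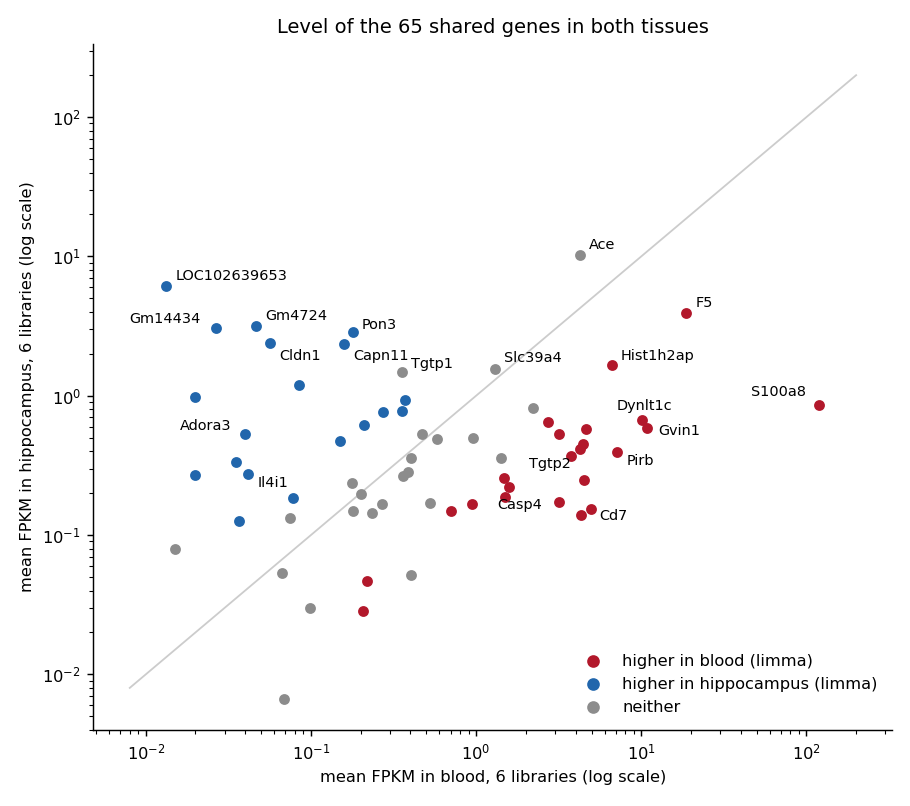
Mean FPKM of each of the 65 shared genes in blood (horizontal axis) and hippocampus (vertical axis), both on log scales, with 1 point per gene, coloured by the limma call; the line marks equal levels. S100a8 lies farthest to the right at 119 FPKM in blood, and Ace, F5, Slc39a4 and Hist1h2ap are the 4 genes with at least 1 FPKM in both tissues.

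Of 12 genes of neutrophils and other myeloid cells, 7 were higher in blood, 0 were higher in the hippocampus and 5 did not pass, with a median log2 difference of 1.68 against 0.16 over all 65 genes. The grouping into roles was made after the names and values were known. S100a8, a calcium-binding protein that neutrophils store in large amounts, stood at 342.7, 106.27 and 66.14 FPKM in the blood of Ctrl 1, 2 and 3 and at 37.85, 105.5 and 58.37 FPKM in that of Akk 1, 2 and 3. In the hippocampus, it stood at 0.39, 0.98 and 1.43 in Ctrl 1 to 3 and 0.38, 0.36 and 1.64 FPKM in Akk 1 to 3. The tissues did not overlap, and the hippocampal mean was 0.723% of the blood mean. The log2 difference of S100a8 was 6.79 (standard error 0.64, adjusted p = 7.4e-07 from limma), the largest of the 65 genes toward blood. The hippocampus of Ctrl 1, whose blood held the highest S100a8 value, had less S100a8 than that of Ctrl 3 or Akk 3.

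Pirb, an inhibitory receptor for MHC class I on myeloid cells, had a mean of 7.15 ± 10.5 FPKM (SD, n = 6) in blood and 0.392 ± 0.214 FPKM (SD, n = 6) in the hippocampus, a log2 difference of 3.21 (standard error 0.59, adjusted p = 0.000195 from limma). Its transcript has near-identical copies in the Pira family, so reads could have been split between them. Steap4, a metal reductase, was higher in blood by 2.97 (standard error 0.55) on the log2 scale, Evi2b, a leukocyte membrane protein, by 2.29 (standard error 0.55), and Padi4, the enzyme that citrullinates histones in neutrophils, by 1.86 (standard error 0.49). Hcar2, the receptor for niacin and ketone bodies, was higher in blood by 1.49 (standard error 0.51, adjusted p = 0.0165 from limma), a call that was lost without Akk 2. Clec4n, which encodes the fungal lectin receptor dectin-2, stood at 0.385 ± 0.432 FPKM (SD, n = 6) in blood and 0.282 ± 0.289 FPKM (SD, n = 6) in the hippocampus, a log2 difference of 0.37 (95% interval -0.43 to 1.17) that did not pass.

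Of 7 genes grouped with lymphocytes, Il7 among them, 5 were higher in blood and 0 in the hippocampus. The call of Klhl6 was lost without Ctrl 2 or Akk 1, and that of Hlx without Akk 2 and with a pseudocount of 1. Cd7, a surface protein of T and NK cells, stood at 11.85, 5.69 and 3.03 in the blood of Ctrl 1 to 3 and at 3.13, 3.12 and 2.82 FPKM in that of Akk 1 to 3. In the hippocampus it was at 0.14, 0.07 and 0 in Ctrl 1 to 3 and 0.13, 0.32 and 0.26 FPKM in Akk 1 to 3. All 6 blood values were above all hippocampal ones, and the log2 difference was 4.24 (standard error 0.47, adjusted p = 3.7e-06 from limma). Cd6, a T cell receptor for activated leukocyte cell adhesion molecule, was higher in blood in 6 of 6 mice, by 1.74 on the log2 scale (standard error 0.42, adjusted p = 0.00191 from limma), a call lost with a pseudocount of 1. Il7, the cytokine that sustains lymphocytes and that is made by stromal cells, was near the floor in both tissues, with means of 0.0667 FPKM in blood and 0.0533 FPKM in the hippocampus.

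The interferon-inducible GTPases included a pair of near-identical genes with different patterns. Tgtp1 and Tgtp2 encode T cell-specific GTPases of the IRG family, which attack the vacuoles of intracellular parasites. Both genes lie next to each other on chromosome 11, Tgtp1 at chr11:48985329-48992246 and Tgtp2 at chr11:49057196-49064212 (GRCm38.p6, RefSeq). The stretches just before their start sites are printed here because both hold a GAAANNGAA beside letters that differ. The transcripts passed the search for near-identical copies, at least 95% identity over at least 50% of the length, which is a threshold and not a measured identity. The letters before the start sites do not show how reads were split between the genes. Capitals mark GAAANNGAA, the core of the interferon-stimulated response element, searched on both strands, and the stretches are chr11:48992259-48992352 and chr11:49064217-49064311, both on the minus strand, from RefSeq.
Tgtp1: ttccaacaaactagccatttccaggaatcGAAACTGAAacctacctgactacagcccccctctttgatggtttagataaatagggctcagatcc
Tgtp2: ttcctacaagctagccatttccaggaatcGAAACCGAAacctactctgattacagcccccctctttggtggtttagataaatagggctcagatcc
These stretches had 89 identical columns of 95, with 5 mismatches and 1 gap column, while the whole 250 bases before the start sites aligned with 61.5% identity. GAAANNGAA was present in the RefSeq window of 6 of the 47 shared genes that have one (12.8%), namely Tgtp1, Tgtp2, Socs1, E2f8, Ms4a7 and A930009A15Rik, against 9.76% of all genes. TTCNNNGAA, the core letters bound by STAT factors, which can overlap the former, was present in 5 of the 47 windows (10.6%) and in those of 9.55% of all genes. The windows reach from 250 bases before to 50 bases after a RefSeq start of the gene, which was the outer end of the gene for 32 of the 47 genes, Tgtp1 and Tgtp2 among them.

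Tgtp2 stood at 10.34, 7.46 and 4.38 in the blood of Ctrl 1 to 3 and at 1.23, 1.72 and 1.55 FPKM in that of Akk 1 to 3. In the hippocampus it was at 1.46, 0.35 and 0.53 in Ctrl 1 to 3 and 0.35, 0 and 0 FPKM in Akk 1 to 3. Every mouse had more Tgtp2 in blood, and the log2 difference was 3.24 (standard error 0.53, adjusted p = 6.5e-05 from limma). Tgtp1 stood at 0.94, 0.61 and 0.22 in the blood of Ctrl 1 to 3 and at 0.21, 0.15 and 0 FPKM in that of Akk 1 to 3, and in the hippocampus at 6.12, 0.97 and 0 in Ctrl 1 to 3 and 0, 1.17 and 0.65 FPKM in Akk 1 to 3. The values of Tgtp1 overlapped between the tissues, and its log2 difference of -0.85 (95% interval -2.15 to 0.44) did not pass. Its highest hippocampal values were those of Ctrl 1 and Akk 2, the libraries in which Ttr was highest. Tgtp2 made up 85.4% to 100% of the sum of both genes in the 6 blood libraries, but 0%, 0%, 19.3%, 26.5%, 100% and 100% in the 6 hippocampal ones, so that single hippocampal libraries listed only one of the pair. Summed over both genes, the blood held 4.80 ± 4.08 FPKM and the hippocampus 1.93 ± 2.79 FPKM (SD, n = 6).

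Gvin1, a very large interferon-inducible GTPase with near-identical neighbours on chromosome 7, stood at 22.99, 13.37 and 16.08 in the blood of Ctrl 1 to 3 and at 3.21, 6.4 and 2.95 FPKM in that of Akk 1 to 3. In the hippocampus its 6 values lay between 0.40 and 0.86 FPKM, below every blood value. The log2 difference was 3.64 (standard error 0.53, adjusted p = 2.7e-05 from limma). Gbp4, a guanylate-binding protein, did not pass, with a mean of 0.473 ± 0.642 FPKM (SD, n = 6) in blood and 0.533 ± 0.244 FPKM (SD, n = 6) in the hippocampus, a log2 difference of -0.58 (95% interval -1.54 to 0.37). Of a hand-written list of 96 interferon-induced genes, 82 were in the blood table and 3 in the hippocampus table, all of them shared (Tgtp1, Tgtp2 and Gbp4), and 1 of the 3 was higher in blood.

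Of a hand-written list of 45 genes of the NOD-like receptor pathway, the cytosolic sensing route that the study followed in both tissues, 41 were in the blood table and 4 in the hippocampus table, all 4 of them shared. Casp4, the caspase that binds intracellular lipopolysaccharide, stood at 12.26, 2.38 and 0.77 in the blood of Ctrl 1 to 3 and at 1.59, 0.91 and 1.1 FPKM in that of Akk 1 to 3, and its hippocampal values lay between 0.06 and 0.25 FPKM. The tissues did not overlap, and the log2 difference was 2.88 (standard error 0.48, adjusted p = 7.9e-05 from limma). The other members of the list did not pass. Naip6, of the family of sensors for bacterial flagellin and secretion needles, had means of 0.202 FPKM in blood and 0.197 FPKM in the hippocampus, and its log2 difference of -0.29 had a 95% interval of -1.07 to 0.50. Mapk13, the p38 delta kinase, had means of 0.362 and 0.265 FPKM in the same order and a difference of 0.12 (95% interval -0.66 to 0.90). Socs1, the inhibitor of JAK-STAT signalling, was higher in the hippocampus by 1.34 on the log2 scale (standard error 0.45, adjusted p = 0.0161 from limma), a call lost without any of Ctrl 2, Ctrl 3, Akk 2 or Akk 3. It was the single shared member of a hand-written list of cytokines, chemokines and their receptors, which did not hold the shared cytokine gene Il7.

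Epithelial genes, including those that the choroid plexus shares with kidney and gut, made up 6 of the 12 shared genes with a mean of at least 1 FPKM in the hippocampus. Of 9 such genes, 5 were higher in the hippocampus, 1 was higher in blood and 3 did not pass, with a median log2 difference of -1.26. Cldn1, a claudin of epithelial tight junctions, stood at 7.51, 0.76 and 0.55 in the hippocampus of Ctrl 1 to 3 and at 1.07, 3.73 and 0.62 FPKM in that of Akk 1 to 3, and between 0.01 and 0.25 FPKM in blood. All hippocampal values were above all blood values, the means differed 41.9-fold, and the log2 difference was -3.46 (standard error 0.45, adjusted p = 9.6e-06 from limma). Pon3, a lactonase of the paraoxonase family, stood at 7.79, 1.75 and 1.31 in the hippocampus of Ctrl 1 to 3 and at 0.89, 4.56 and 0.78 FPKM in that of Akk 1 to 3, against 0.07 to 0.64 FPKM in blood, a log2 difference of -3.15 (standard error 0.49, adjusted p = 4.3e-05 from limma). Nid2, a basement membrane protein, differed by -2.99 (standard error 0.38), Crb3, a cell polarity protein, by -2.58 (standard error 0.42) and Rbm47, an epithelial RNA-binding protein, by -1.16 (standard error 0.39), where the call of Rbm47 was lost without Ctrl 2 or Akk 2.

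F5 and Ace had a mean of at least 1 FPKM in both tissues. In the hippocampus, however, F5 was below 1 FPKM in Ctrl 2, Ctrl 3, Akk 1 and Akk 3. F5, coagulation factor V, which platelets carry and which the choroid plexus list also holds, stood at 71.34, 11.37 and 7.81 in the blood of Ctrl 1 to 3 and at 7.06, 7.72 and 7.19 FPKM in that of Akk 1 to 3. In the hippocampus it stood at 13.34, 0.65 and 0.37 in Ctrl 1 to 3 and 0.21, 8.6 and 0.46 FPKM in Akk 1 to 3. F5 was higher in blood in 5 of 6 mice, the exception being Akk 2, and the log2 difference was 3.08 (standard error 0.65, adjusted p = 0.000675 from limma). Ace, the angiotensin-converting enzyme, found on monocytes, endothelium and the choroid plexus, stood at 16.01, 3.2 and 1.79 in the blood of Ctrl 1 to 3 and at 2.29, 0.84 and 1.47 FPKM in that of Akk 1 to 3. Its hippocampal values were 29.98, 4.25 and 2.72 in Ctrl 1 to 3 and 2.09, 18.45 and 4.41 FPKM in Akk 1 to 3. Ace was higher in the hippocampus in 5 of 6 mice, but the tissues overlapped and the log2 difference of -1.26 (95% interval -2.57 to 0.05, adjusted p = 0.0769 from limma) did not pass. Slc39a4, the zinc importer of the gut, had means of 1.30 ± 1.08 FPKM (SD, n = 6) in blood and 1.55 ± 1.02 FPKM (SD, n = 6) in the hippocampus, a log2 difference of -0.28 (95% interval -1.34 to 0.78).

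The hippocampal values of the epithelial genes named above moved with the choroid plexus markers. Krt7, a keratin gene, did not, being listed at 0 in 5 hippocampal libraries and at 0.04 FPKM in Akk 1. Its log2 difference of 0.54 did not pass. Without F5 and Ace, the listed choroid plexus markers summed to 7073 FPKM in the hippocampus of Ctrl 1 and to 2627 FPKM in that of Akk 2, against 113 to 151 FPKM in the other 4 mice. Of the 65 shared genes, 13 (20.0%) had both their highest hippocampal values in Ctrl 1 and Akk 2, while 90 of the 284 genes of the table did so (31.7%). The 13 genes were Ace, F5, Cldn1, Pon3, Crb3, Rbm47, Slc39a4 and Nid2, and outside the epithelial group Arhgap28, H2-Q9, Piezo1, Ptpn7 and Tgtp1. The pattern was thus not particular to the epithelial genes. The blood table listed only 4 of the 30 markers, against 20 in that of the hippocampus. Those in blood other than F5 and Ace summed to 0 to 0.68 FPKM, which covers fewer genes and cannot be compared with the hippocampal sums. With both of these mice left out, which was chosen after seeing the data, the log2 difference was -2.85 for Cldn1, -2.68 for Pon3, -2.57 for Nid2, -2.10 for Crb3 and -0.87 for Rbm47 (adjusted p = 0.000795, 0.000788, 0.00087, 0.00354 and 0.0438 from limma), and the call of each was kept. F5 was then higher in blood by 4.06 (adjusted p = 0.000497 from limma). The 4 mice left still had 113 to 151 FPKM of these markers, and the part of choroid plexus RNA in the tissue difference was not tested.

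**Figure D2:**
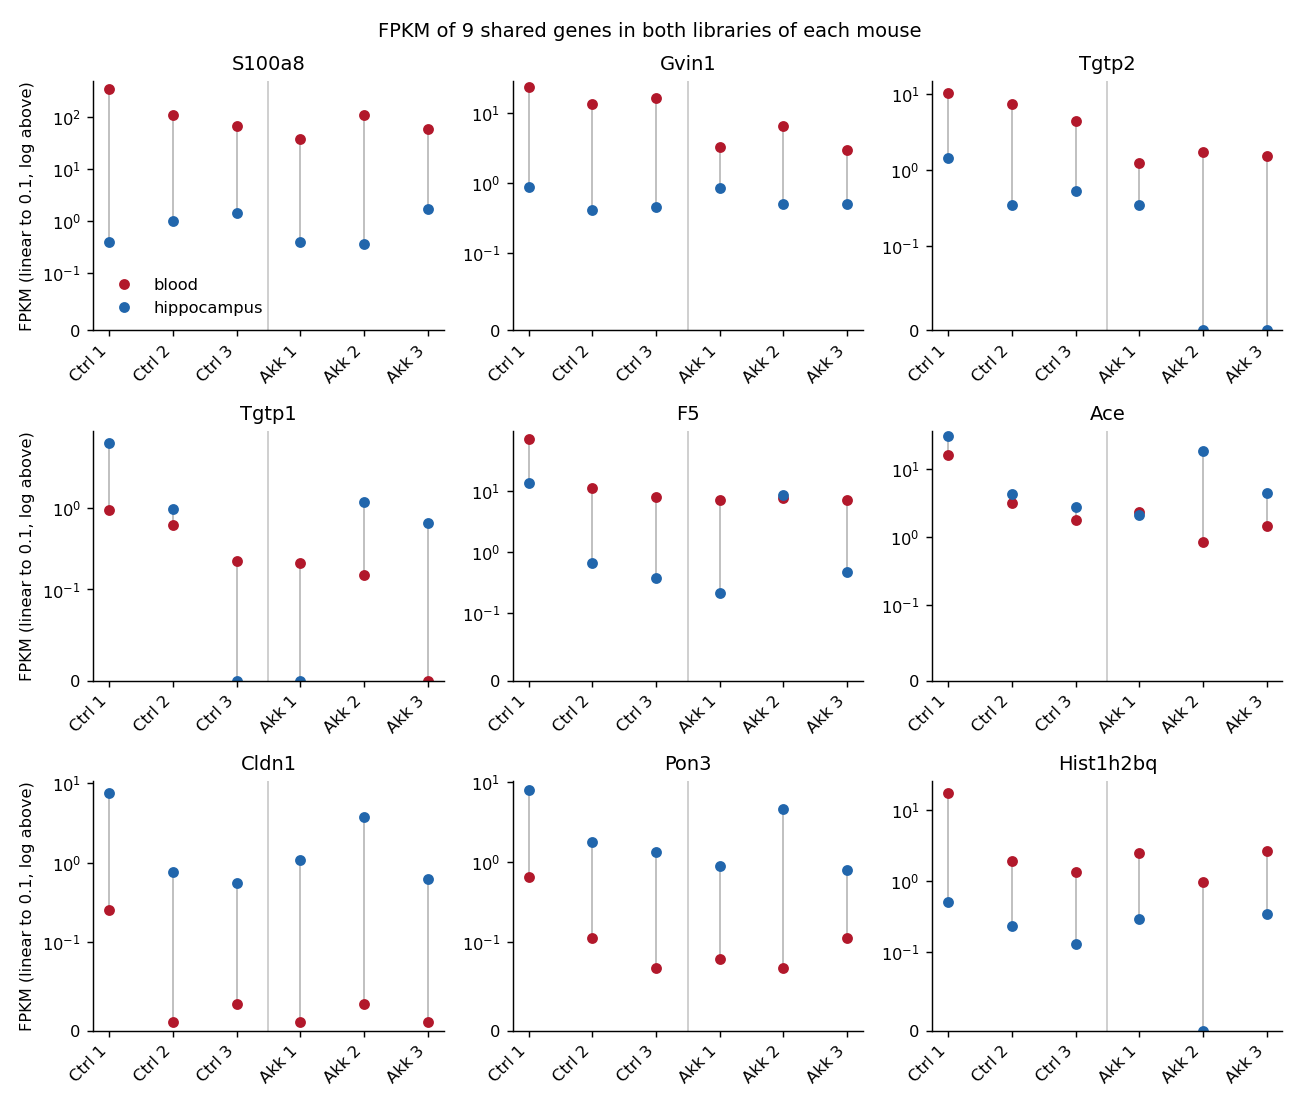
FPKM of 9 shared genes in the blood (red) and the hippocampus (blue) of each mouse, with 1 point per library and a grey line joining both libraries of a mouse; the vertical axes are linear up to 0.1 FPKM and logarithmic above. S100a8 and Gvin1 keep the tissues apart in all 6 mice, Cldn1 and Pon3 are highest in the hippocampus of Ctrl 1 and Akk 2, and F5 meets its blood level only in Akk 2.

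Of 4 genes grouped as genes of microglia and macrophages, 3 passed toward the hippocampus, 0 toward blood, and 1 did not pass. Of a hand-written list of 14 microglia markers, 8 were in the blood table, where they summed to 16.8 to 147 FPKM, and 1, Cst7, was in that of the hippocampus, so the list could not be compared between the tissues. Adora3, the adenosine A3 receptor, which microglia express, stood at 0.57, 0.66 and 0.63 in the hippocampus of Ctrl 1 to 3 and at 0.46, 0.28 and 0.6 FPKM in that of Akk 1 to 3. In blood it was listed at 0 in 4 of 6 libraries and reached 0.2 FPKM in Ctrl 1, below every hippocampal value. The log2 difference was -2.28 (standard error 0.35, adjusted p = 4.3e-05 from limma). Ms4a7, a membrane protein of border-associated macrophages, differed by -1.50 (standard error 0.29, adjusted p = 0.000332 from limma), and Mgl2, a galactose-binding lectin of macrophages and dendritic cells, by -1.50 (standard error 0.40, adjusted p = 0.00428 from limma). Cst7, the cystatin F gene of cytotoxic lymphocytes and activated microglia, did not pass, with means of 0.958 ± 0.820 FPKM (SD, n = 6) in blood and 0.5 ± 0.310 FPKM (SD, n = 6) in the hippocampus. The calls of Adora3, Ms4a7 and Mgl2 were lost with a pseudocount of 1, since all 3 genes were below 1 FPKM in every library.

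The replication-dependent histone genes differed toward blood. Hist1h2bq, a histone H2B gene, stood at 17.43, 1.92 and 1.36 in the blood of Ctrl 1 to 3 and at 2.49, 0.98 and 2.7 FPKM in that of Akk 1 to 3. In the hippocampus it stood at 0.5, 0.23 and 0.13 in Ctrl 1 to 3 and 0.29, 0 and 0.34 FPKM in Akk 1 to 3. Its transcript has a near-identical copy in Hist1h2br, so reads could have been split between them. The tissues did not overlap, and the log2 difference was 3.16 (standard error 0.50, adjusted p = 5.0e-05 from limma). Hist1h2ap, a histone H2A gene with 12 near-identical copies, was higher in blood by 2.18 (standard error 0.55, adjusted p = 0.0028 from limma), with 6.62 ± 5.61 FPKM (SD, n = 6) against 1.66 ± 1.20 FPKM (SD, n = 6). Transcripts of such histone genes mostly lack a poly(A) tail, and the libraries were made from RNA selected with oligo(dT) beads. Of the cell division genes, Aurkb and E2f8 were higher in the hippocampus at means of 0.127 and 0.185 FPKM, and both calls were lost with a pseudocount of 1 and without Ctrl 2, Akk 1 or Akk 3, that of E2f8 also without Ctrl 3 or Akk 2.

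The largest difference toward the hippocampus came from a group of copies. LOC102639653, Gm14434 and Gm4724 are predicted genes of a zinc finger cluster at the distal end of chromosome 2, at chr2:175737837-175754980, chr2:176470369-176486853 and chr2:175418037-175704126 (GRCm38.p6, RefSeq). Their transcripts are near-identical to each other and to those of the same 8 other genes of the cluster outside this set. A stretch of 250 bases before a RefSeq start is printed because those of Gm14434 and Gm4724 were identical in 250 of 250 bases, so that only one of them is shown, and that of LOC102639653 (Gm2007 in RefSeq) shares 182 bases with both without a mismatch. The starts used are not the outer ends of the genes given above but lie inside them, by 37 bases in LOC102639653, 104 bases in Gm14434 and 268349 bases in Gm4724. Capitals mark the bases outside the shared run, and the stretches are chr2:175737624-175737873 on the plus strand and chr2:176486750-176486999 on the minus strand.
LOC102639653: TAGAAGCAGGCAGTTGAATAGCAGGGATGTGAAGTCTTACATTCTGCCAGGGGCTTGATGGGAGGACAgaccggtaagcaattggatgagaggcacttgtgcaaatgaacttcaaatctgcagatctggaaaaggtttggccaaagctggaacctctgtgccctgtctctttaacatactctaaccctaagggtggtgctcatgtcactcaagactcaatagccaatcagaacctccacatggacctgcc
Gm14434: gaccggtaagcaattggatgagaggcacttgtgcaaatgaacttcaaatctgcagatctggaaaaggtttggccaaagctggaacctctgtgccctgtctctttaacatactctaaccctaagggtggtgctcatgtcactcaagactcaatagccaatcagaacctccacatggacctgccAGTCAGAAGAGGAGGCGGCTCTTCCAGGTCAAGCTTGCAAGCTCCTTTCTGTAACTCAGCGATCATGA
The shared run ends the stretch of LOC102639653 and opens that of Gm14434, with 68 bases outside it in each.

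LOC102639653 stood at 10.45, 4.56 and 5.06 in the hippocampus of Ctrl 1 to 3 and at 14.47, 2.54 and 0 FPKM in that of Akk 1 to 3. In blood it was listed at 0 in 5 libraries and at 0.08 FPKM in Akk 1. The log2 difference was -4.84 (standard error 0.64, adjusted p = 9.6e-06 from limma). Its size depends on the pseudocount, since the blood values are at or near 0. Gm14434 stood at 0, 0.02 and 0 in the hippocampus of Ctrl 1 to 3 and at 8.11, 4.31 and 5.9 FPKM in that of Akk 1 to 3, and Gm4724 at 0.02, 0.85 and 0 FPKM and at 3.72, 9.85 and 4.64 FPKM. In blood, Gm14434 reached at most 0.11 FPKM and Gm4724 at most 0.25 FPKM, both in Ctrl mice. Over both groups, Gm14434 was higher in the hippocampus by 2.72 (standard error 0.35) and Gm4724 by 3.13 (standard error 0.52), averages over a Ctrl group without and an Akk group with a clear hippocampal level.

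Within the hippocampus, the copies took different shares in different mice. LOC102639653 was nearly the only listed copy of the group in the Ctrl mice, all 3 were listed in Akk 1 and Akk 2, and LOC102639653 was at 0 in Akk 3. The sum of the 3 genes was 10.47, 5.43 and 5.06 in Ctrl 1 to 3 and 26.3, 16.7 and 10.54 FPKM in Akk 1 to 3, so that the lowest Akk sum lay next to the highest Ctrl sum. The sum of Gm14434 and Gm4724 alone was 0.297 ± 0.497 FPKM in the Ctrl group and 12.2 ± 1.83 FPKM in the Akk group (SD, n = 3). How the authors' counting shared reads between the copies was not tested.

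**Figure D3:**
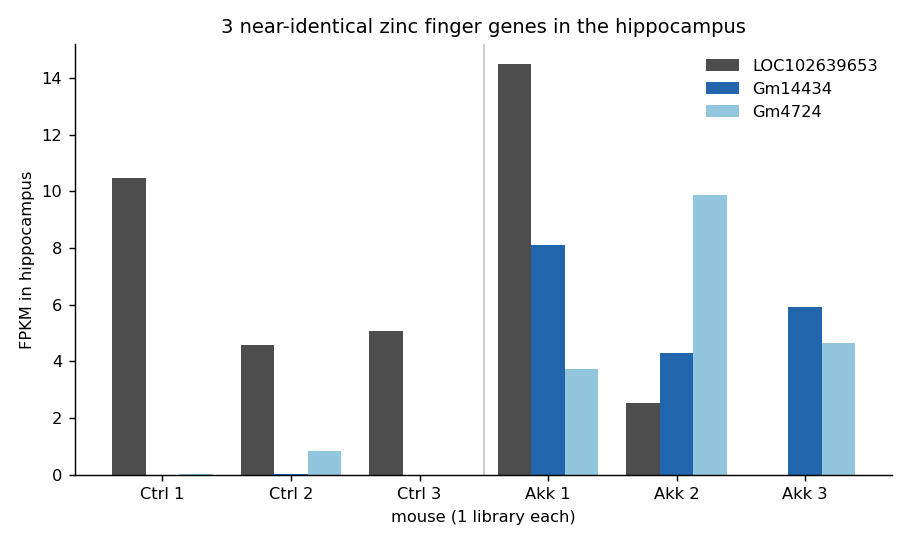
FPKM of LOC102639653, Gm14434 and Gm4724 in the hippocampus library of each of the 6 mice, as bars starting at 0. LOC102639653 is listed in every mouse except Akk 3, and Gm14434 and Gm4724 lie above 1 FPKM only in the 3 Akk mice.

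Of the 18 shared genes outside these roles, 4 were higher in blood and 6 in the hippocampus. Dynlt1c, a dynein light chain with near-identical copies, stood at 32.28, 9.14 and 5.16 in the blood of Ctrl 1 to 3 and at 5.33, 2.55 and 5.92 FPKM in that of Akk 1 to 3, and was listed at 0 in 5 hippocampal libraries and at 3.99 FPKM in that of Akk 3. Only the Akk 3 value overlapped the blood values, and the log2 difference was 5.27 (standard error 0.65, adjusted p = 8.9e-06 from limma). Capn11, a calpain best known from the testis, stood at 3.12, 7.02 and 2.44 in the hippocampus of Ctrl 1 to 3 and at 0.44, 0.75 and 0.36 FPKM in that of Akk 1 to 3, against 0 to 0.6 FPKM in blood, a log2 difference of -3.06 (standard error 0.45, adjusted p = 2.8e-05 from limma). H2-Q9, a nonclassical MHC class I gene that closely resembles its neighbours of the Q region, was higher in blood by 1.53 (standard error 0.56, adjusted p = 0.0234 from limma), a call lost without any of Ctrl 1, Ctrl 2, Akk 1 or Akk 2. A930009A15Rik was higher in the hippocampus by 1.55 (standard error 0.50, adjusted p = 0.0137 from limma), a call lost without Ctrl 2, Ctrl 3 or Akk 2. Il4i1, an enzyme that degrades aromatic amino acids in antigen-presenting cells, was higher in the hippocampus by 0.98 (standard error 0.29, adjusted p = 0.00866 from limma), a call lost without Ctrl 2 and with pseudocounts of 1 and of 0.01. All 3 Ctrl mice had Il4i1 listed at 0 in the hippocampus, so this average comes from the Akk mice.

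**Figure D4:**
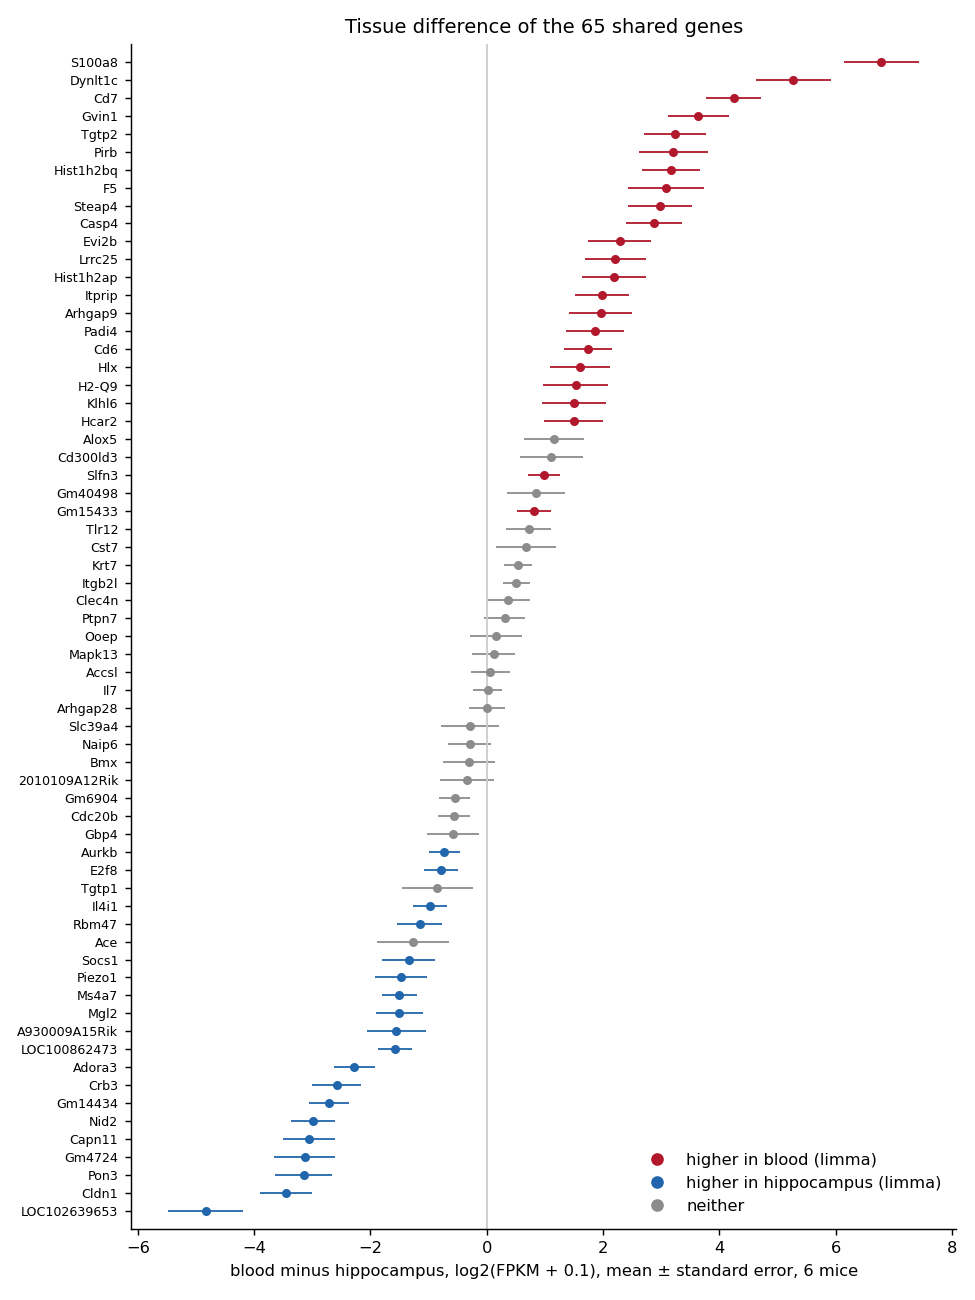
Difference between blood and hippocampus on the log2(FPKM + 0.1) scale for the 65 shared genes, as the mean over 6 mice (points) with the standard error from limma (bars), sorted by size and coloured by the limma call. Differences run from -4.84 for LOC102639653 to 6.79 for S100a8.

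The Akk and Ctrl groups were compared in each tissue to see how the shared genes differed with the treatment. Since the blood table equals a list chosen on this difference, the directions and the medians in blood describe the selection. Neither they nor the counts of unadjusted p-values in blood are a result about the shared genes. In blood, the Akk mean was below the Ctrl mean for 63 of the 65 genes and above it for 2, and 0 passed the thresholds with limma over the 8003 genes of the table, of which 0% were lower and 0% were higher. An unadjusted p under 0.05 from limma was reached by 8 of the 65 shared genes and, a smaller share, by 276 of the 8003 genes of the table (3.45%). The smallest adjusted p was 0.487. The median log2 difference was -0.99 over the 65 genes and -0.87 over the table. In 11 shared genes, all 3 Akk values lay below all 3 Ctrl values, among them Gvin1, Tgtp1, Tgtp2, Cst7, F5, Mapk13 and Cd6, and in 0 genes they lay above. The same held for 15.4% of the blood table below and 0.175% above, so the share of the 65 genes was close to that of the table. Gvin1 differed by -2.09 (standard error 0.94) and Tgtp2 by -2.16 (standard error 0.93) on the log2 scale, both with an adjusted p of 0.487 from limma. Ctrl 1 held the highest blood value for 61 of the 65 genes and for 7836 of the 8003 genes of the table, so this was not particular to the shared genes. Without Ctrl 1, 50 shared genes had a negative and 15 a positive log2 difference, with a median of -0.28, and again 0 passed. Without Ctrl 3, 2 shared genes passed as lower in the Akk group, Capn11 (-2.37, adjusted p = 0.034 from limma) and H2-Q9 (-4.21, adjusted p = 0.00875 from limma).

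In the hippocampus, the Akk mean was below the Ctrl mean for 46 of the 65 genes and above it for 19. With limma over the 284 genes, 0 shared genes were lower and 2 were higher, Gm14434 and Il4i1, where 0.352% of the table was lower and 0.704% was higher. Gm14434 differed by 5.82 (standard error 0.41, adjusted p = 0.00288 from limma). The 3 Ctrl mice had Il4i1 listed at 0, and it stood at 0.74, 0.42 and 0.48 FPKM in Akk 1 to 3, a difference of 2.66 (standard error 0.30, adjusted p = 0.0129 from limma), and its call was lost without Ctrl 1, Ctrl 2, Ctrl 3, Akk 2 or Akk 3. Il4i1 shares a near-identical transcript stretch with its neighbour Tbc1d17. The groups did not overlap in 5 shared genes with the Akk values below, namely Capn11, Klhl6, Hlx, Evi2b and Arhgap9, and in 4 with the Akk values above, namely Gm14434, Gm4724, Il4i1 and Hist1h2ap. In the table, 7.04% of genes had the Akk values below and 8.80% had them above. Capn11 differed by -2.70 (standard error 0.57, adjusted p = 0.12 from limma). In 0 genes were the groups separate in both tissues. The median log2 difference of the 65 genes was -0.31, against -0.11 over the table, and it was 0.07 without Ctrl 1.

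The difference between the groups was then compared between the tissues, with the blood value minus the hippocampus value of each mouse. A row in the blood table was set by the blood part of this contrast, so the shared genes were not chosen independently of the test. With limma over the 65 genes, 3 genes (4.62%) passed, all with a negative value, that is, a higher hippocampal level relative to blood in the Akk group. These were Gm14434 (-6.06, standard error 0.69, adjusted p = 1.0e-05), Il4i1 (-3.04, standard error 0.59, adjusted p = 0.00291) and Gm4724 (-5.13, standard error 1.05, adjusted p = 0.00343). In each, the blood values were at or near 0 in both groups, so the difference lay in the hippocampal values. The call of Gm4724 was lost without Ctrl 1 (adjusted p = 0.0575 from limma) and without Akk 2 (adjusted p = 0.0549 from limma), while Gm14434 passed without any of the 6 mice. Among all 65 genes, 53 had a negative and 12 a positive value, with a median of -0.76, and the median was -0.22 without Ctrl 1. By its selection the blood table held nearly only genes lower in the Akk group, so this lean is no result about the shared genes. With libraries centred on the median of their own table, 23 genes had a negative and 42 a positive value, with a median of 0.26.

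Finally, the order of the 6 mice was compared between the tissues for each gene with Spearman's rho and a two-sided exact permutation test over the 720 pairings. Of the 65 genes, 47 had a positive rho, 16 a negative one and 2 a rho of 0, with a median of 0.22. A permutation p of at most 0.05 before adjustment was reached by 3 genes with a positive and 2 with a negative rho, and the smallest adjusted p was 0.181, so no gene passed. After each library was centred on the median of its own table, 34 genes had a positive and 31 a negative rho, with a median of 0.03. Without Ctrl 1, which held the highest value in both tissues for 26 of the 65 genes, 37 were positive and 23 negative. The excess of positive values was thus smaller after centring. With values taken as deviations from their group means, 46 genes had a positive and 18 a negative rho, with a median of 0.46. Pearson's r was positive for 46 genes and negative for 19, with a median of 0.42. The lean was thus kept in these settings.

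Hist1h2bq had the same order of mice in both tissues (rho = 1, exact permutation p = 0.00278, the smallest that 6 mice allow, adjusted p = 0.181), with Ctrl 1 highest, then Akk 3, Akk 1, Ctrl 2 and Ctrl 3, and Akk 2 lowest. Pearson's r of log2(FPKM + 0.1) was 0.79 (exact permutation p = 0.0944), and 0.99 after Ctrl 1 and Akk 2 were left out. For every gene, the pair of mice left out from r was the one farthest from its median blood value, so the pair differs between genes. H2-Q9 had a rho of 0.84 and an r of 0.91 (exact permutation p = 0.0444 and 0.0222), with r at 0.83 after Ctrl 1 and Ctrl 3 were left out. Its blood values were 15.04, 5.38 and 0 in Ctrl 1 to 3 and 0.55, 1.72 and 0 FPKM in Akk 1 to 3, and its hippocampal values were 0.8, 0.62 and 0 FPKM and 0.08, 0.63 and 0.1 FPKM. Ctrl 3 was thus listed at 0 in both tissues, and Ctrl 1, Ctrl 2 and Akk 2 were the 3 highest in both. Ms4a7 (rho = 0.86) was higher in both tissues in Ctrl 1 and Ctrl 2 than in the other mice, which were at 0 in blood, and Clec4n had a rho of 0.83.

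The lowest values were found for 2010109A12Rik, Cd6, A930009A15Rik and Hcar2. 2010109A12Rik, an uncharacterized gene, stood at 0, 0.08 and 0 in the blood of Ctrl 1 to 3 and at 0.66, 0.08 and 0.24 FPKM in that of Akk 1 to 3, but at 0.4, 0.14 and 0.5 FPKM and at 0, 0.38 and 0 FPKM in the hippocampus. The mice highest in blood, Akk 1 and Akk 3, were those listed at 0 in the hippocampus (rho = -0.96, exact permutation p = 0.0167, adjusted p = 0.542; r = -0.90, and -0.69 without these 2 mice). Cd6 had a rho of -0.89 (exact permutation p = 0.0333, adjusted p = 0.542), with Akk 1 highest in the hippocampus at 0.42 FPKM and Ctrl 1 lowest at 0.03 FPKM, where Ctrl 1 was highest in blood at 1.11 FPKM. The r of Cd6 was -0.65, and -0.40 after Akk 1 and Akk 3 were left out. A930009A15Rik and Hcar2 both had a rho of -0.70. For S100a8, the neutrophil transcript with the largest difference between the tissues, the rho was -0.14.

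**Figure D5:**
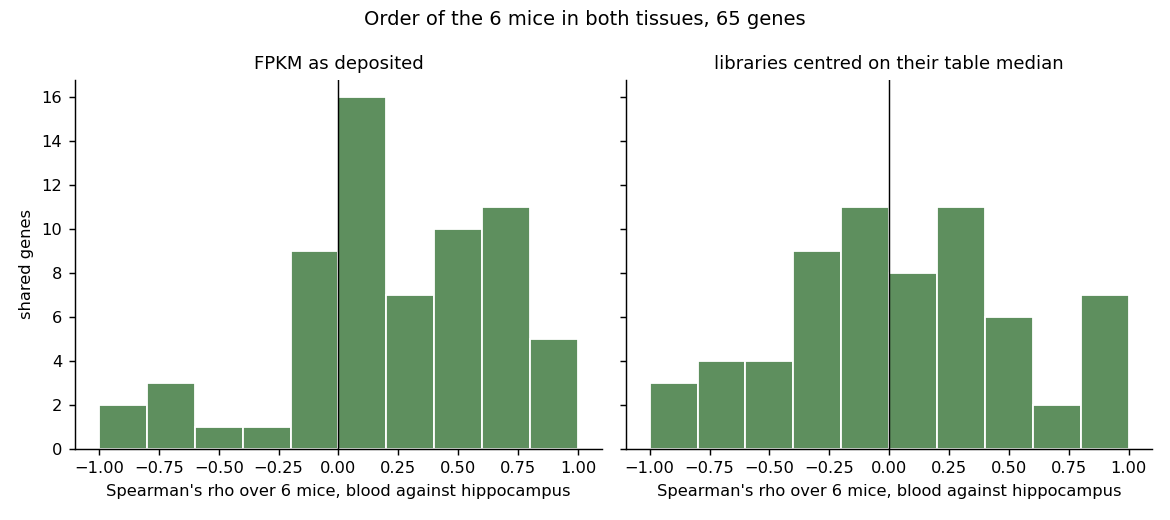
Number of shared genes (vertical axis) by Spearman's rho between the blood and hippocampus values of the 6 mice (horizontal axis), for FPKM as deposited on the left and after centring each library on the median of its own table on the right. The left panel leans to positive values, with 47 genes above 0 and 16 below, and the right panel has 34 above and 31 below.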

How the data were processed

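Blood and hippocampus RNA of 6 mice (12 libraries) was selected with oligo(dT) beads and sequenced on the BGISEQ-500. Per the study's methods, the authors cleaned the reads, mapped them with HISAT2 and Bowtie2 and computed expression with RSEM, whereas the submitters' processing notes name TopHat2, Cufflinks and GRCm38. The authors deposited FPKM per library for selected genes, rounded to 2 decimals, and the blood table equals in size and direction their list of genes that differed between the groups. Read depth is not given, so counting error is unknown, and whether both tables were made in a single run is not stated. Samples were assigned by their labels.

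Genes were matched by gene number. From the FPKM, log2(FPKM + 0.1) was computed. The tissue difference was the mean of the blood minus hippocampus differences per mouse, averaged over both groups, and the difference of the treatment between tissues was the Akk minus Ctrl contrast of the same values, both with limma 3.58.1 in R 4.3.3 over the 65 shared genes. The mouse number in the sample titles ties both libraries to 1 animal, so they were paired, and the deviations of both libraries of a mouse from their group means correlated at 0.02 to 0.25 over the shared genes. In each tissue, Akk was compared with Ctrl over the whole table. All limma fits used an intensity trend and Benjamini-Hochberg adjustment, with thresholds of 1.5-fold and an adjusted p of 0.05. Replicates are separate mice. An exact permutation test of 3 against 3 mice cannot give a p below 0.1, so none was run on single genes. Spearman's rho and Pearson's r were tested over all 720 pairings. Pearson's r was also computed without the pair of mice farthest from the median log2 blood value of each gene. The code was checked on simulated data. Near-identical transcripts (at least 95% identity over at least 50% of the length) were searched with blastn 2.17.0 in GENCODE M21, where 62 genes had a transcript and 16 had a copy. Gene positions came from RefSeq (GRCm38.p6), where 64 genes matched, and upstream windows from the same source, where 47 did. Biopython 1.88, scipy 1.17.1, numpy 2.4.6 and pandas 2.3.3 in Python 3.11.15 were used for the rest, with matplotlib 3.10.9 for the plots.

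The members, gene lists and roles were chosen with earlier results of these data known. The genes named are the 5 with the largest tissue difference in each direction, those with a mean of at least 1 FPKM in both tissues, the 4 highest and the 4 lowest in rho, those with separate groups in both tissues, those past the thresholds in a comparison of the treatment, and the shared members of the lists. Other genes were named after their values were seen. The alternatives were pseudocounts of 1 and 0.01, a mean of at least 1 FPKM, centred libraries, fits with and without a replicate block, no trend, and each mouse left out. For the order of the mice, deviations from the group means and Pearson's r were added. Centring without Ctrl 1 in blood and leaving out both Ctrl 1 and Akk 2 in the tissue difference were chosen after seeing the data.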

Additional observations from a re-analysis of the deposited data

Results flagged for a closer look

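The difference between the Akk and Ctrl groups itself differed between blood and hippocampus, by the test of that difference in limma, for 3 of the 65 shared genes. The shared genes were not chosen independently of this contrast, since the blood table was selected on the group difference in blood. The values are the blood minus hippocampus difference on the log2 scale in the Akk mice minus that in the Ctrl mice. It was -6.06 for Gm14434, -5.13 for Gm4724 and -3.04 for Il4i1, and for each gene all 3 Akk mice had a higher hippocampal value than all 3 Ctrl mice while the blood values were at most 0.25 FPKM. Gm14434 and Gm4724 are near-identical copies with 250 of 250 identical bases before the RefSeq starts compared, so they are not independent of each other. With libraries centred on the median of their own table, the values were -5.04 for Gm14434 (adjusted p = 0.00326 from limma), -4.11 for Gm4724 (adjusted p = 0.0415 from limma) and -2.02 for Il4i1 (adjusted p = 0.0971 from limma).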

How the results depend on the processing

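The 23 and 19 genes higher in blood and in the hippocampus became 18 and 8 with a pseudocount of 1, and 16 and 6 of 25 genes with a mean of at least 1 FPKM. Leaving out each mouse in turn gave 20 to 26 and 13 to 21. Of the 42 calls, 31 held without each of the mice, and 24 held both there and with every other single choice changed, wherever the gene was tested; 20 of the 24 were tested with the filter of at least 1 FPKM. Leaving out both Ctrl 1 and Akk 2, chosen after seeing the data, kept 39 of the 42, with 21 and 20 genes called. No called gene changed direction. Among the genes not called, 5 changed direction in the tissue difference. Leaving out each mouse gave -0.80 to 0.29 for 2010109A12Rik, -0.24 to 0.27 for Accsl, -0.12 to 0.14 for Arhgap28, -0.16 to 0.19 for Il7 and -0.086 to 0.41 for Ooep. Without both Ctrl 1 and Akk 2 it was 0.42 for 2010109A12Rik, -0.30 for Accsl and -0.077 for Il7. With a pseudocount of 0.01 it was -0.10 for Accsl, -0.27 for Arhgap28 and -0.29 for Il7. Without the pairing of the tissues by mouse (no replicate block), 21 and 16 genes passed, and the calls of H2-Q9, Rbm47, Aurkb, E2f8 and Gm15433 were lost. The replicate numbers 1 to 3, used as a block between the groups, number different mice; same-numbered libraries correlated at -0.10 to 0.04 in blood and -0.32 to 0.14 in the hippocampus, and 0 libraries correlated best with their own number. Under this replicate block, 0 shared genes passed in the hippocampus in place of 2, and the 3 negative treatment differences between tissues became 2. In the hippocampus, 1 gene, Gm14434, passed in place of 2 with a pseudocount of 1, with centred libraries and with a mean of at least 1 FPKM, and leaving out each mouse gave 1 to 2 genes. Leaving out each mouse gave 0 to 2 genes lower in blood, where 0 passed, and 2 to 4 negative and 0 to 1 positive treatment differences between tissues. Centring the blood libraries and leaving out Ctrl 1, chosen after seeing the data, gave 0 shared genes and a median log2 difference of -0.03. The 47 positive and 16 negative rho values became 34 and 31 with centred libraries and 19 and 6 of 25 genes with a mean of at least 1 FPKM. They became 46 and 18 with deviations from the group means, and Pearson's r gave 46 and 19. Leaving out each mouse gave 37 to 50 positive and 11 to 23 negative. Values below 1 FPKM, rounded to 2 decimals, limit most of the 65 genes.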
